A study of Mus musculus with 7 samples.

Results

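After dexamethasone, summits of glucocorticoid receptor binding were found at 1836 sites in every treated library and in no untreated library, away from all untreated summits. They are 1836 of 35316 receptor sites in the whole series (5.20%, exact 95% interval 4.97 to 5.43%), and 5.41% of the 33916 sites on the autosomes. The members were chosen by presence and absence of peak summits: a site on chromosomes 1 to 19 had a summit in all 4 dexamethasone lists and in none of the 3 vehicle lists, and no vehicle summit lay within 10 kb of its midpoint. Since those values chose the members, presence, absence and distance to a vehicle summit are given as descriptions, with no test.

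The data are ChIP-seq peak lists for the receptor (NR3C1), made with an in-house antibody from mouse embryonic fibroblasts, which are connective-tissue cells grown out of embryos. Embryos came from dams at 14 to 17 days post coitum, and cells were used between passages 4 and 11. Cells were wild type or Klf15-/-, and received dexamethasone, a synthetic glucocorticoid, or ethanol vehicle for 1 h. There were 2 wild-type and 2 Klf15-/- dexamethasone libraries, 2 Klf15-/- vehicle libraries, and 1 wild-type vehicle library that was pooled because material was scarce. Nothing in the labels tells whether replicates were grown as separate cultures, so their spread may be technical, or whether the serum in the medium had been stripped of steroids. Cell type and genotype were not checked against marker loci.

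Without hormone, the receptor is held largely in the cytoplasm by chaperones. Bound to a glucocorticoid it moves to the nucleus and binds DNA at imperfect palindromes called glucocorticoid response elements, mostly far from promoters and often where chromatin is already open. KLF15, a zinc-finger transcription factor, is itself the product of a glucocorticoid-induced gene and acts with the receptor at some shared targets.

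Each list gives single-base summit positions in build mm9 and a score from the authors' peak caller, of unstated scale. Wild-type dexamethasone lists held 15628 and 16927 summits, and Klf15-/- dexamethasone lists held 19999 and 20169. The vehicle lists were shorter, with 10034 in wild type against 7325 and 8088 in Klf15-/-. Read depth is unknown, and scores are given here as percentiles within a list, where 100 is the highest score. Summits no more than 200 bp apart, from any list, form a site. A site without a vehicle summit is a site not called in shorter lists, and low occupancy there cannot be told apart from none. Gene names and sequences of the sites are not given, since no mm9 genome or annotation was used here.

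Sites held by all 4 dexamethasone lists made up 26.1% of autosomal sites (8842). Of these, 6122 also had a vehicle summit inside the site, and 2720, or 8.02% of autosomal sites, did not. The 1836 members were 67.5% (65.7 to 69.3%) of those 2720 ligand-dependent sites, and the other 884 had a vehicle summit within 10 kb. The wild-type vehicle list set this number most: 3159 sites met the rule without it, against 2004 when the first Klf15-/- vehicle list was left out and 2319 when the second was.

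Members covered nearly the whole range of scores in each treated library. In wild-type library 1 they ran from percentile 0 to 99.8, with a median of 59.9. In wild-type library 2 the median was 63.1, and in Klf15-/- libraries 1 and 2 it was 66.5 and 66.8. The higher medians belong to the longer lists. Ligand-dependent sites close to a vehicle summit had medians of 61.9, 62.5, 66.2 and 65.7 in the same order, within 2 points of the members in every list. Sites with a vehicle summit stood higher, at 71.2, 72.9, 76.5 and 76.8.

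**Figure D1:**
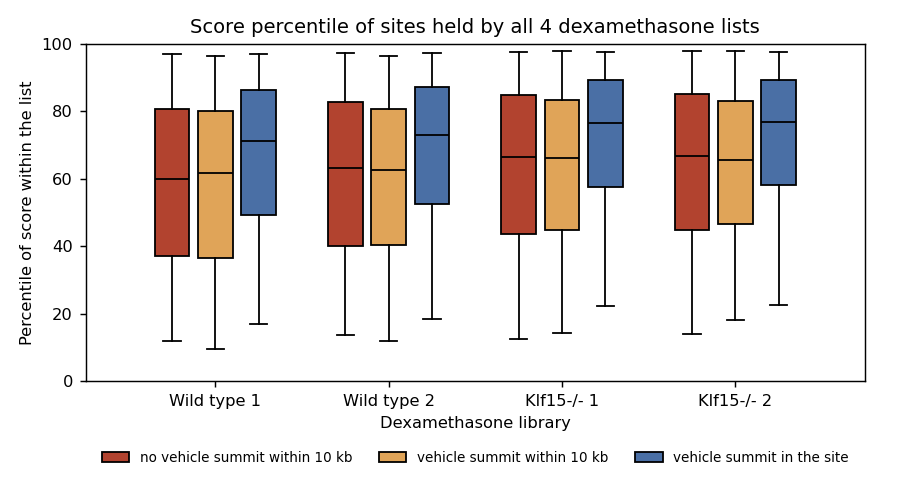
Percentile of the score within each dexamethasone list (vertical axis) for the 4 libraries (horizontal axis), in 3 classes of sites held by all 4 lists; boxes span the quartiles with the median as a line, and whiskers reach the percentiles 5 and 95. Medians of the far sites lie between 59.9 and 66.8 and those of sites with a vehicle summit between 71.2 and 76.8.

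A minority of members were among the highest-scoring receptor sites. Above percentile 90 in all 4 lists were 161 members (8.77%, 7.52 to 10.2%), beside 9.98% of all sites held by the 4 lists. Ligand-dependent sites close to a vehicle summit had the lowest share at this cutoff, with 59 of 884 (6.67%, 5.1 to 8.5%). Among sites with a vehicle summit it was 10.8%. Above percentile 99 in all 4 lists were 17 members (0.93%, 0.54 to 1.48%), beside 1.21% of all sites held by the 4 lists. Ligand-dependent sites close to a vehicle summit had the highest share there, with 18 of 884 (2.04%, 1.21 to 3.20%), against 72 of 6122 (1.18%) among sites with a vehicle summit. At the other end, 229 members (12.5%, 11.0 to 14.1%) fell below percentile 10 in at least 1 list, beside 8.75% of all sites held by the 4 lists and 13.2% of the ligand-dependent sites close to a vehicle summit. Only 8 members (0.44%) stayed below percentile 25 in all 4, beside 0.18% and 0.23% in the same order. In the upper part of all 4 lists, above percentile 50, were 729 members (39.7%, 37.5 to 42.0%). That share was 40.6% (37.3 to 43.9%) in ligand-dependent sites close to a vehicle summit, 55.4% in sites with one and 50.7% in all of these sites.

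The share of members among sites held by the 4 lists fell with score and was higher again at the top. For this the 8842 sites were ranked in each list among themselves, so that list length did not enter, and cut into deciles of their mean rank. Members made up 34.8% (31.7 to 38.0%) of the lowest decile and 14.3% (12.0 to 16.7%) of the ninth. In the highest decile they made up 19.3% (16.8 to 22.1%), with 171 of 885 sites. Sites with a vehicle summit moved the other way, from 49.5% in the lowest decile to 78.8% in the ninth and 72.9% in the highest. Within the ligand-dependent sites, the part lying far from vehicle summits stayed between 62.3% and 71.3% in every decile. These intervals cover counting error only, and sites are not replicates.

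**Figure D2:**
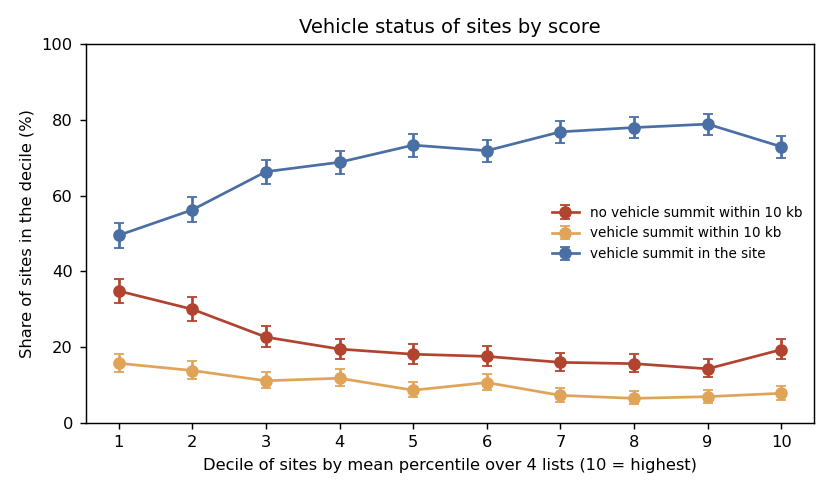
Share of sites (%) with each vehicle status (vertical axis) in deciles of mean score rank over the 4 dexamethasone lists (horizontal axis), for 8842 autosomal sites; bars are exact 95% binomial intervals. The far sites go from 34.8% in the lowest decile to 14.3% in the ninth and 19.3% in the highest.

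The strongest members were named by the percentile in the list where they ranked lowest. The first was chr15:78962076-78962099, which had wild-type percentiles of 99.80 and 99.85 and Klf15-/- percentiles of 99.85 and 99.94. Its summits were at 78962076 and 78962099 in wild type against 78962092 and 78962078 in Klf15-/-, and the nearest vehicle summit was 101 kb away. The next was chr16:52094947-52094959, with wild-type values of 99.74 and 99.84, Klf15-/- values of 99.82 and 99.84, and all 4 summits inside 12 bp. At both sites the genotypes overlapped in rank.

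The site chr4:140979385-140979399 came next, 113 kb from any vehicle summit, with percentiles of 99.67 and 99.79 (wild type) and 99.81 and 99.86 (Klf15-/-). The fourth, chr17:47645077-47645112, stood at 99.81 and 99.63 in wild type against 99.88 and 99.82 in Klf15-/-. The fifth, chr15:103198710-103198720, stood at 99.72 and 99.78 in wild type against 99.62 and 99.68 in Klf15-/-. It only just met the distance rule, with a vehicle summit 10.2 kb away. The sixth, chr13:5603613-5603623, stood at 99.57 and 99.59 (wild type) and 99.57 and 99.74 (Klf15-/-), and its summits fell within 10 bp. The seventh, chr2:160631081-160631120, had percentiles of 99.46, 99.61, 99.54 and 99.60 and lay 184 kb from a vehicle summit.

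The remaining 13 of the 20 highest were chr13:52831788-52831822, chr16:55789673-55789692, chr10:59437005-59437021, chr5:73100862-73100875, chr11:40260510-40260534, chr9:77592861-77592904, chr11:116395112-116395142, chr11:87927193-87927249, chr1:138510142-138510155, chr17:49613677-49613694, chr13:103415790-103415825, chr16:95463288-95463330 and chr15:79565337-79565402. All 20 were at percentile 98.99 or above in each treated library. They were spread over 11 chromosomes, with 3 each on chromosomes 11, 13, 15 and 16. Their median distance to a vehicle summit was 43.3 kb (10.2 to 187 kb), close to the median of all members. In 11 of the 20 no other site with a dexamethasone summit lay within 10 kb, beside 58.0% of all members. The rule itself removes neighbours with a vehicle summit at that distance. Among the 10 highest of all 2720 ligand-dependent sites 4 were members, among the 20 highest 8, among the 50 highest 29, and among the 100 highest 68, where members are 67.5% of the whole set.

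Summit positions repeated closely between libraries, and more closely at strong members. Over all members the outermost of the 4 summits were a median of 76 bp apart (7 to 386 bp). In the quintile of members with the lowest mean rank the median was 118 bp, followed by 95, 84 and 68 bp, and in the highest quintile it was 42 bp. At 225 of the 367 members of the highest quintile (61.3%) the 4 summits fell within 50 bp of each other, against 27 of 368 (7.34%) in the lowest. The other classes tightened with score too, each cut into its own quintiles. Ligand-dependent sites close to a vehicle summit went from 114 to 46 bp, and from 11.9% to 56.5% within 50 bp. Sites with a vehicle summit went from 104 to 56 bp, and from 10.5% to 44.3%. Among the 20 strongest members the extent ran from 10 to 65 bp, with a median of 23.5 bp. Linkage at 200 bp limits how large these distances can be.

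Placement did not separate the genotypes. The median distance between the summits of a member was 36 bp between the wild-type libraries and 34 bp between the Klf15-/- libraries. Across the genotypes it was 35 to 38 bp. The other classes had similar values, with 74 bp between the outermost summits in ligand-dependent sites close to a vehicle summit and 79 bp in sites with one. The 5 narrowest members spanned 7 to 9 bp and the 5 widest 353 to 386 bp. A list put more than 1 summit into the same site at 8 members (0.44%), beside 0.53% of all sites held by the 4 lists.

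**Figure D3:**
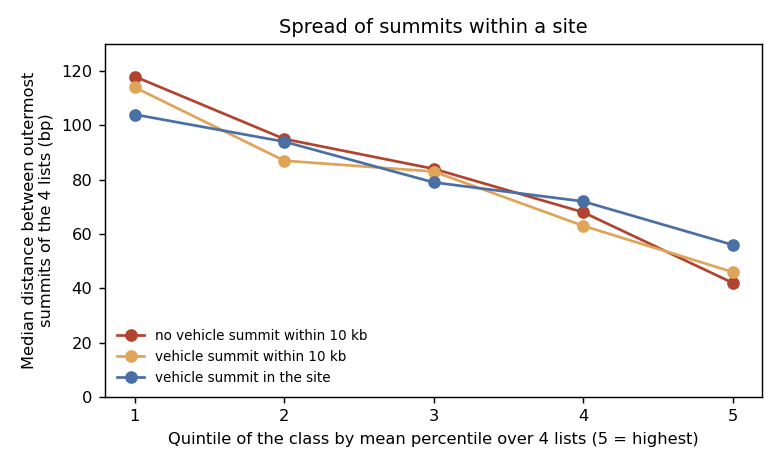
Median distance in bp between the outermost summits of the 4 dexamethasone lists (vertical axis) by quintile of mean score rank within each class (horizontal axis); the lines are the 3 classes of sites held by all 4 lists. In the far sites the distance falls from 118 bp in the lowest quintile to 42 bp in the highest.

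Members lay a median of 43.4 kb from the nearest vehicle summit, with quartiles of 21.4 and 95.5 kb. The rule sets the lower bound of 10 kb, and 415 members were within 20 kb. A distance above 100 kb was found for 431 members and one above 500 kb for 12. The nearest summit belonged to the wild-type vehicle list, the longest of the vehicle lists, at 883 members. Score did not follow this distance: the median mean rank was 37.7 at 10 to 20 kb, 38.8 at 20 to 50 kb, 38.9 at 50 to 100 kb, 38.5 at 100 to 200 kb and 36.0 at 200 to 500 kb. The 12 members beyond 500 kb had a median of 54.5. The share above percentile 90 in all lists lay between 8.12% and 10.3% at all these distances.

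The most remote member was chr12:13437218-13437254, 2136 kb from any vehicle summit, with percentiles of 71.35 and 74.97 (wild type) and 43.61 and 50.43 (Klf15-/-). The next, chr10:104452181-104452262, was 1274 kb away, at 67.48 and 84.44 in wild type against 95.08 and 91.08 in Klf15-/-. It was also remote from other treated sites, with the nearest 108 kb away. The third, chr5:9069097-9069118, was 1092 kb from a vehicle summit, and its percentiles of 73.66 and 36.00 in wild type against 66.71 and 79.63 in Klf15-/- overlapped. The fourth, chr8:17565080-17565137, was the strongest of the 5, at 91.62 and 90.57 in wild type against 97.30 and 98.63 in Klf15-/-. The fifth, chr5:45875026-45875124, stood at 91.87 and 88.57 in wild type against 68.55 and 53.85 in Klf15-/-.

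At the distance threshold the sites on either side covered a wide range of scores. Just inside was chr7:112624147-112624267, 10.01 kb from a vehicle summit, whose percentiles ran from 21.62 to 61.06 over the 4 lists. Next were chr3:65447767-65447850 at 10.03 kb, with 18.54 to 57.04, and chr14:44023997-44024027 at 10.12 kb, with 21.62 to 93.56. The fifth of the strongest members, with percentiles of 99.62 to 99.78, followed closely at 10.16 kb. Just outside was chr1:175962152-175962220 at 9.984 kb, with percentiles of 36.20 to 75.54. Beyond it were chr10:98674684-98674807 at 9.976 kb, with 30.77 to 82.81, and chr17:64342839-64342952 at 9.956 kb, with 3.83 to 62.88.

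Most members stood alone. No other site with a dexamethasone summit lay within 10 kb of 1064 members (58.0%, 55.7 to 60.2%), 504 had 1 such neighbour, 205 had 2, and 63 had 3 to 5. The median distance to the next treated site was 12.3 kb, and it exceeded 100 kb at 78 members, with a largest value of 521 kb. Sites with a vehicle summit were alone in 41.7% (40.5 to 43.0%). Ligand-dependent sites close to a vehicle summit were alone in 9.28%. The rule enters both contrasts: it removes every neighbour with a vehicle summit within 10 kb of a member, and it asks for such a summit in the close class, so nothing is read from these differences.

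Members also occurred in runs. With neighbours at most 50 kb apart, 483 members (26.3%, 24.3 to 28.4%) were in a run of 2 or more, beside 33.5% of all ligand-dependent sites counted among themselves, a denser set. Among the ligand-dependent sites close to a vehicle summit, a smaller set counted among themselves, 200 of 884 were in a run (22.6%, 19.9 to 25.5%). Of the runs of members, 174 had 2 members, 32 had 3, 5 had 4, and the 3 longest had 8, 6 and 5.

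The longest run, on chromosome 1 from 74045151 to 74117016, held 8 members in 71.9 kb, and no vehicle summit came nearer than 145 kb to any of them. Its strongest member, chr1:74054470-74054498, had percentiles of 98.59 and 97.52 in the wild-type lists and 98.44 and 98.40 in the Klf15-/- lists. Its neighbour chr1:74061336-74061385 had 94.68 and 92.81 against 93.24 and 93.36. The percentiles of each of these members lay within a few points of one another. The member chr1:74094062-74094097 was lower in wild type, at 86.61 and 86.41, than in Klf15-/-, at 95.08 and 96.91. The first member of the run, chr1:74045151-74045305, was weak in wild type, at 10.44 and 7.90, and spread in Klf15-/-, at 25.18 and 62.73.

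The second run, on chromosome 4 from 149187791 to 149264133, held 6 members in 76.3 kb, at 89.8 to 166 kb from a vehicle summit. Here chr4:149194740-149194938 was low in wild type (percentiles 8.16 and 2.96) and intermediate in Klf15-/- (54.16 and 65.45). In the same run chr4:149209004-149209226 went the other way, at 48.05 and 63.79 in wild type against 6.82 and 29.01 in Klf15-/-. The strongest members were those at the ends, chr4:149187791-149187830 with percentiles of 77.23 to 91.75 and chr4:149264043-149264133 with 77.69 to 87.25.

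The third run, on chromosome 12 from 8386836 to 8443614, held 5 members in 56.8 kb. Its strongest member, chr12:8386836-8386888, had percentiles of 86.89 and 90.11 (wild type) and 94.98 and 94.66 (Klf15-/-). The weakest, chr12:8401914-8401998, stood at 34.20 and 49.27 in wild type against 17.76 and 3.40 in Klf15-/-. Ranked among the sites held by all 4 dexamethasone lists, each run held members higher in both wild-type lists and members higher in both Klf15-/- lists. They numbered 2 and 3 in the first run, and 1 and 2 in each of the other runs. On the percentiles given here, no member of the first run was higher in both wild-type lists.

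**Figure D4:**
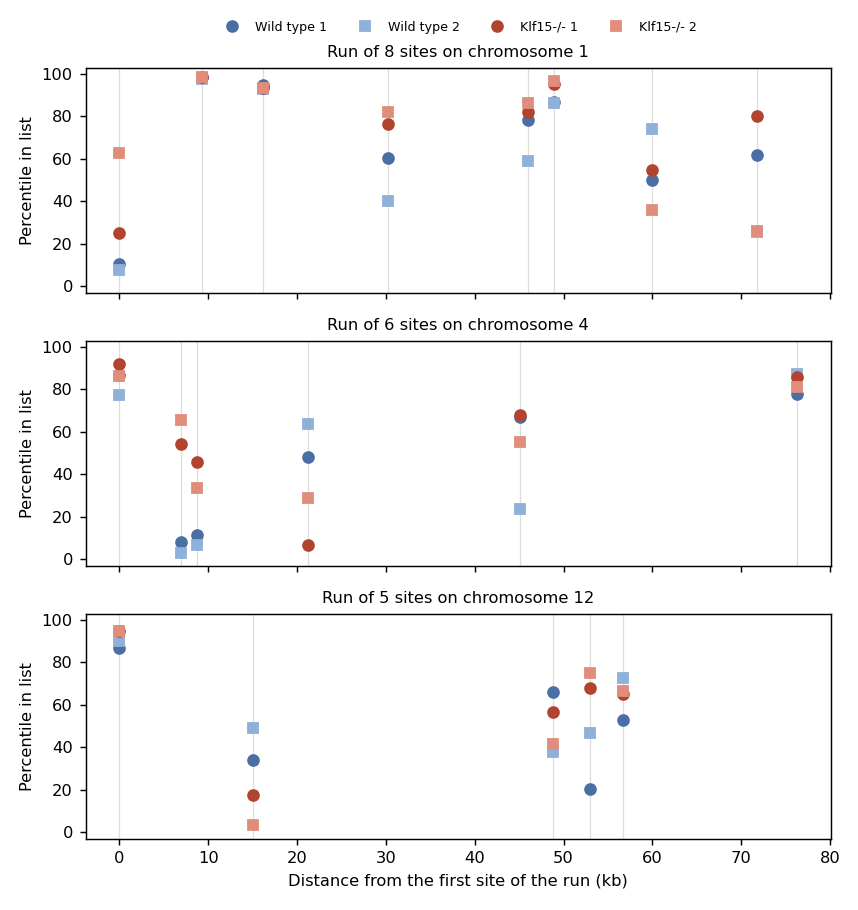
Percentile of the score within each list (vertical axis) for every site of the 3 longest runs, against distance in kb from the first site of the run (horizontal axis); colours mark the 4 dexamethasone libraries and grey lines the sites. Strong sites at percentiles above 90 in all libraries stand beside sites whose percentiles range from below 10 to above 60.

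Loss of Klf15 was compared at the members by their rank among the 8842 sites held by the 4 dexamethasone lists, on a scale from 0 to 100. The median rank over all members was 39.7 and 40.6 in the wild-type libraries and 39.9 and 39.6 in the Klf15-/- libraries. Single members moved more between genotypes than between replicates. The median absolute difference of a member was 10.2 points between the wild-type libraries and 9.86 between the Klf15-/- libraries. Across the genotypes, the 4 pairs of libraries gave 14.4 to 15.4 points. The other classes behaved alike. Ligand-dependent sites close to a vehicle summit gave 11.65 and 9.76 points within the genotypes and 14.61 to 15.63 across them. Sites with a vehicle summit gave 9.99 and 9.48 within and 14.15 to 14.63 across. Spearman's rho over the 1836 members was 0.752 and 0.789 within the genotypes and 0.592 to 0.620 between them, as a description over sites that share libraries.

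In 504 members (27.5%, 25.4 to 29.5%) both wild-type ranks were above both Klf15-/- ranks, beside 27.3% of all sites held by the 4 lists. In 486 members (26.5%, 24.5 to 28.5%) both Klf15-/- ranks were higher, beside 25.9%. Both shares are near those of all sites. In the other 846 members the genotypes overlapped. A gap of more than 25 points between the genotypes was found at 84 members (4.58%) in favour of wild type, beside 4.59% of all sites, and at 78 (4.25%) in favour of Klf15-/-, beside 4.95%. With 2 libraries on each side, the smallest p of an exact two-sided permutation test is 0.33, so no test was made.

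The balance between the directions depended on the scale and on the vehicle lists. With percentiles among all summits of a list, in place of ranks among the shared sites, 385 members (21.0%, 19.1 to 22.9%) were higher in both wild-type lists and 619 (33.7%, 31.6 to 35.9%) in both Klf15-/- lists. All sites held by the 4 lists moved alike on that scale, to 20.1% and 33.9%, and the Klf15-/- lists are the longer ones. On the scale of shared sites, 2412 of all 8842 sites held by the 4 lists ranked higher in wild type and 2294 in Klf15-/-. Without the wild-type vehicle list, 995 of the 3159 sites meeting the rule ranked higher in wild type and 663 in Klf15-/-. With the wild-type vehicle list alone, the counts were 595 and 839 of 2640. With either filter, sites that ranked higher in the genotype of the filter were the fewer. The genotypes also differed in summits on chromosome Y, with 2 and 1 in the wild-type and 75 and 75 in the Klf15-/- dexamethasone lists. Loss of Klf15 and other differences between the cell preparations cannot be told apart.

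The member with the widest gap in favour of wild type was chr14:56957023-56957086, at common-set ranks 88.6 and 96.2 in wild type against 4.63 and 8.10 in Klf15-/-. The second was chr6:72513331-72513367, with ranks of 84.8 and 93.5 in wild type against 4.63 and 7.27 in Klf15-/-. The third, chr1:44273779-44273853, had ranks of 90.7 and 89.3 in wild type against 13.7 and 10.0 in Klf15-/-. In these 3 the replicates of a genotype were at most 8.70 points apart and the genotypes at least 75.6. The fourth was chr1:72777803-72777840, with 83.6 and 85.8 against 12.0 and 9.11. The fifth was chr3:21977141-21977227, with 72.2 and 72.9 against 6.20 and 4.58.

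In the other direction the widest gap was at chr1:167368935-167368985, with ranks of 16.2 and 1.37 in wild type against 87.1 and 88.1 in Klf15-/-. The second, chr3:121152425-121152517, had 23.2 and 13.5 in wild type against 76.3 and 76.2 in Klf15-/-. The third, chr5:38351617-38351753, had 30.0 and 25.8 against 85.8 and 82.6. The fourth, chr3:135413860-135413915, had 23.2 and 28.4 against 84.0 and 80.9. The fifth, chr7:96660692-96660748, had wild-type ranks of 4.48 and 33.6, which were far apart, against 91.5 and 85.7 in Klf15-/-. These 10 members were picked for their gap out of 1836, so the gaps are descriptions. All 10 had a summit in each of the 4 lists, as the rule requires.

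**Figure D5:**
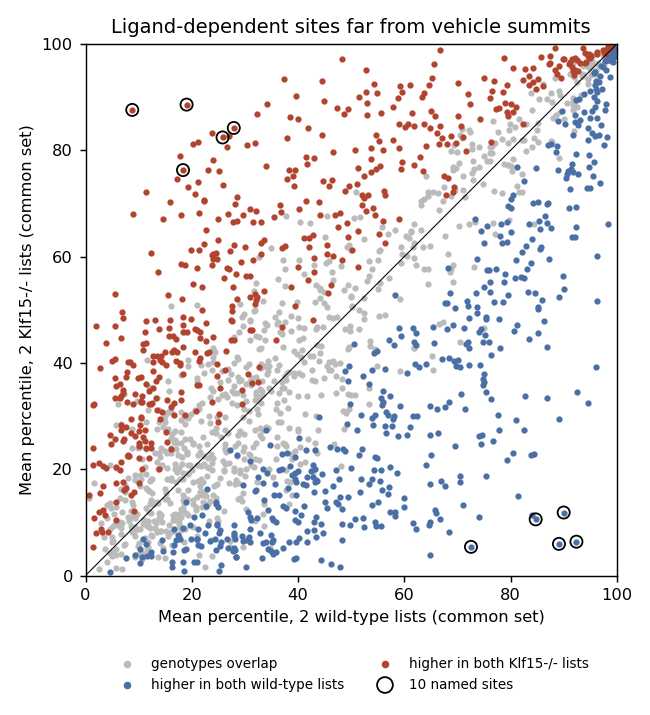
Mean rank in the 2 Klf15-/- dexamethasone lists (vertical axis) against that in the 2 wild-type lists (horizontal axis), both as percentiles among 8842 sites, with 1 point per site for the 1836 far sites and the line of equality. Blue marks the 504 sites higher in both wild-type lists, red the 486 higher in both Klf15-/- lists, grey the 846 that overlap, and circles the 10 named sites.

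Members were found on every autosome, from 49 on chromosome 18 to 146 on chromosome 10. Among sites held by the 4 lists, members were 14.2% (10.7 to 18.3%) on chromosome 18 and 25.9% (22.0 to 30.1%) on chromosome 11, the lowest and highest shares. Among ligand-dependent sites, those far from a vehicle summit were 76.3% (68.9 to 82.6%) on chromosome 11 and 58.0% (48.3 to 67.3%) on chromosome 17. These extremes were picked from 19 chromosomes and not tested.

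Genotype direction was counted by chromosome as a description. Members higher in both wild-type lists against both Klf15-/- lists numbered 29 against 13 of 84 on chromosome 15 and 22 against 11 of 54 on chromosome 19. The other sites of the 4 lists leaned the same way there. Their median differences of wild type minus Klf15-/- were 5.86 and 3.49 points, against 1.66 and 3.04 in members. The counts were 9 against 18 of 49 on chromosome 18, 23 against 40 of 126 on chromosome 3, and 17 against 16 of 65 on chromosome 17. On chromosomes 18 and 3 the median differences were -0.87 and -0.65 in the other sites, against -4.42 and -2.92 in members. On chromosome 17 they were 0.03 and -0.03. All these chromosomes were picked after their values were seen. A pair of chromosome sets had been chosen for their direction in earlier results of these data, so the contrast between them is set by that choice and nothing is read from it. On chromosomes 8, 10, 15, 17 and 19, 143 of 431 members (33.2%) ranked higher in both wild-type lists and 92 (21.3%) in both Klf15-/- lists, beside 34.1% and 19.4% of all sites of the 4 lists there. On chromosomes 1, 7, 9 and 14 the members numbered 90 (24.3%) and 121 (32.7%) of 370, beside 23.1% and 30.0%, and on the other 10 autosomes 271 and 273 of 1035. The median difference of wild type minus Klf15-/- was 1.56 points in the first set, -1.72 in the second and -0.45 on the other autosomes. In the first set it was 5.91 without the wild-type vehicle list, 0.15 with that vehicle list alone and -0.60 with percentiles over whole lists. In the second set the same settings gave 0.16, -5.68 and -4.52.

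Neighbouring members resembled each other only weakly in their genotype difference. Over 100 pairs of neighbours at most 10 kb apart Pearson's r was 0.29 and Spearman's rho 0.23, and 59 pairs had the same direction. Over 1461 such pairs of all sites held by the 4 lists r was 0.19 and 57.0% had the same direction, close to the share among members. In the members r was 0.18 without the second wild-type dexamethasone library and 0.05 with dexamethasone summits above the median score. It was 0.38 and 0.41 with vehicle distances of 20 and 50 kb. Over the 22 pairs within 2 kb r was 0.53 and rho 0.25. Over the 78 pairs of 2 to 10 kb r was 0.16, and over 169 pairs of 10 to 50 kb it was 0.17. Over 287 pairs of 50 to 200 kb it was 0.01. In all sites held by the 4 lists r was 0.18 within 2 kb and 0.19 at 2 to 10 kb. There it was 0.14 at 10 to 50 kb and 0.08 at 50 to 200 kb. The difference between replicates gave 0.05 in wild type and -0.05 in Klf15-/- over the 100 pairs of members at most 10 kb apart. Over the 22 pairs within 2 kb it gave 0.28 in wild type and 0.06 in Klf15-/-. The points share libraries, and r is a description over pairs of sites.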

How the data were processed

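Receptor ChIP-seq was carried out on 7 libraries after 1 h of treatment, with crosslinking in 1% formaldehyde for 5 min and reads of 50 bp, per the labels' protocols. The submitters' processing notes name CASAVA 1.4, Bowtie2 2, SAMtools and build mm9. Not given in the sources used here are the caller, the control and the threshold. The deposited score per summit, from the authors' peak caller, has no stated scale and many ties (4051 distinct values among 15628 summits in the first wild-type dexamethasone list). It was used only as a rank within its list, with ties averaged. A list called per library grows with depth and enrichment, which changes which sites count as absent.

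Summits were linked at 200 bp, sites classed by the lists holding them, and ranks taken within lists or among sites held by the 4 dexamethasone lists. The highest-scoring summit of a list stood for it. Intervals are exact (Clopper-Pearson) 95% binomial intervals for counting error. The labelled replicate numbers paired no samples. No p-value was computed for any comparison. Linkage and classing were tested on simulated lists. Members, chromosome sets and naming rules were chosen with earlier results of these data known. Named were the 20 members with the highest lowest percentile, the 5 with the widest genotype gap each way, the 5 farthest from vehicle summits, the 3 on each side of 10 kb and the 3 longest runs. Planned motif and gene analyses need an mm9 genome and are not analysed here. The scripts ran under Python 3.11.15, with scipy 1.17.1, pandas 2.3.3, numpy 2.4.6 and, for figures, matplotlib 3.10.9.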

Additional observations from a re-analysis of the deposited data

How the results depend on the processing

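Of 177 recomputed values, 113 stayed within their bounds (1.5 times for a count, the spread between libraries or a 95% interval otherwise), 62 moved and 2 reversed. The count of members was 830 with a vehicle distance of 50 kb and 723 with dexamethasone summits above the median score, and 2004 to 3159 with 1 library left out. Their share of ligand-dependent sites was 63.9% and 70.1% with linkage at 100 and 500 bp, 80.5%, 52.2% and 30.5% with vehicle distances of 5, 20 and 50 kb, and 74.8% with the wild-type vehicle list alone. It was 66.9% to 75.7% with 1 library left out. Members higher in both wild-type lists numbered 226 of 830 with 50 kb and 229 of 723 above the median score, and 520 to 995 with 1 library left out. Those higher in both Klf15-/- lists numbered 239 of 830, 222 of 723 and 553 to 866 in the same order, and 839 of 2640 with the wild-type vehicle list alone. The sets differ in size, so these counts move with it, and the same counts over all sites are not given here. The 995 came from leaving out the wild-type vehicle list. With a dexamethasone library left out the counts were 791 to 913 and 778 to 866, which rise by construction, since a genotype left with 1 library needs only that library to stand clear. With percentiles over whole lists they were 385 and 619.

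The mean of the 4 median percentiles, 64.1, became 86.3 above the median score, 70.7 in lists of equal length and 58.7 to 63.7 with 1 library left out. The median extent was 71 and 82 bp with linkage at 100 and 500 bp, 55 bp above the median score, 70 bp in lists of equal length and 63 to 81 bp with 1 library left out. Members within 50 kb of another numbered 314 and 190 with 20 and 50 kb, 114 above the median score, 830 with the wild-type vehicle list alone and 561 to 1170 with 1 library left out. The median distance to a vehicle summit was 33.3, 62.0 and 104.0 kb with 5, 20 and 50 kb, 59.7 kb with the wild-type vehicle list alone and 42.9 to 60.3 kb with 1 library left out. The reversed values were the median genotype differences of -0.60 on chromosomes 8, 10, 15, 17 and 19 with percentiles over whole lists, and of 0.16 on chromosomes 1, 7, 9 and 14 without the wild-type vehicle list (-4.20 without the second Klf15-/- one); the cause was not tested.

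In a replicate block of same-numbered pairs, 615 of the 1836 members ranked higher in wild type in both pairs and 617 in Klf15-/-. The same count over all sites is not given here, so nothing is read from these. The numbers share no stated source, and deviations of same-numbered libraries had a correlation of 0.003 over 8842 sites. The settings with the wild-type vehicle list alone, without chromosomes 8, 10, 15, 17 and 19, and all those for the chromosome sets and neighbouring pairs were chosen after seeing the data. Motif windows and promoter distances were not run. Depth is unknown, so a site missing from a vehicle list is not shown to be unoccupied.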

Other observations

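Chromosome X, outside the rule, held 54 sites found in all 4 dexamethasone lists and no vehicle list. No vehicle summit lay within 10 kb of 44 of them, and their median distance to one was 139 kb. Their median percentiles were 69.0 and 72.0 in the wild-type and 66.7 and 71.7 in the Klf15-/- dexamethasone lists.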
